A study of Homo sapiens with 6 samples.

Results

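ETS factors are transcription factors that share an ETS domain, a winged helix-turn-helix fold that reads a GGA core in DNA. The 10 described here, ETS1, ETS2, ELF1, ELF3, EHF, ELK1, ELK3, ELK4, GABPA and ERF, lie outside the PEA3 group of ETV1, ETV4 and ETV5. They were taken by gene symbol from the raw count table, and all 10 were found among its 26364 genes. The question they bear on is whether other ETS genes were expressed at other levels where ETV4 had been knocked out, and with estrogen. No value here measures protein, DNA binding or the function of one factor in place of another.

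Messenger RNA was sequenced from Ishikawa cells, a line of endometrioid adenocarcinoma of the endometrium, in 3 forms: the parental line and ETV4 KO clones 1 and 2. Before treatment all cells spent 5 days in phenol-red free, hormone-depleted medium with charcoal-dextran treated serum. From each line 1 library followed vehicle (DMSO), and 1 followed 10 nM of the natural estrogen estradiol (E2), which leaves n = 2 clones for each knockout group and a single library for each parental one. The protocols give a treatment of 8 h and the sample characteristics give 1 h, so the time is uncertain. The labels do not say how the knockout was made, and each knockout line is 1 clone. Whatever sets these clones apart from the parental line besides ETV4 cannot be told apart from the knockout. The labels name no separate cultures within a line and treatment, so the p-values measure the spread between these 6 libraries.

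Most ETS factors accept similar sites, so several members of the family can occupy one promoter, and cells generally express many of them at once. Much of their specificity comes from partners and kinases: ERK phosphorylates ELK1, ELK3, ELK4, ETS1 and ETS2, which alters their activity, while phosphorylation of the repressor ERF by ERK moves it out of the nucleus. ELF3 and EHF are largely restricted to epithelia, GABPA is a general regulator of housekeeping and mitochondrial genes, and ETV4 is known in endometrial cancer cells as a factor found near estrogen receptor sites.

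Promoters of the factors were read from RefSeq (GRCh38.p14, windows of 250 bases before and 50 after each start site), and 9 of the 10 genes matched, with 16 start sites. ETS1 was not matched. The 7-letter ETS motif CCGGAAG, searched on both strands, occurred once in the window of ELK4 and once in that of GABPA and in no other window of the 9 genes. Among all 35116 promoters of the same length, 10.3% held it. The 13-letter estrogen response element GGTCANNNTGACC, whose strands read alike, was in none of the 16 windows and in 0.0570% of all promoters. The 2 motifs cannot overlap in these windows, since no window holds both. The bases before the start are shown for ELK4 and EHF, the 2 factors whose level was higher with E2 in all 3 lines, and for GABPA as the other promoter with the ETS motif. ELK4 lies on the minus strand at chr1:205632012-205632261, GABPA on the plus strand at chr21:25734722-25734971, and the first start site of EHF on the plus strand at chr11:34624007-34624256. Each is printed 5′ to 3′ in the strand RefSeq gives for its gene, with the ETS motif in capitals. The bases after the start were found in a GENCODE v29 transcript of the gene for EHF and GABPA but not for ELK4, so the ELK4 start rests on RefSeq alone. In ELK4 it begins 22 bases before the start (offset -22) in the forward direction, and in GABPA at offset -66 on the opposite strand.
ELK4: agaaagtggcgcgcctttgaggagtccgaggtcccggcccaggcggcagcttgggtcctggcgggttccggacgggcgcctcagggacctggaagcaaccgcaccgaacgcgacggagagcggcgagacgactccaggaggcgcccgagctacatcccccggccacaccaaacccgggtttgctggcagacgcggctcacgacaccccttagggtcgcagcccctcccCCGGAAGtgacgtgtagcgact
GABPA: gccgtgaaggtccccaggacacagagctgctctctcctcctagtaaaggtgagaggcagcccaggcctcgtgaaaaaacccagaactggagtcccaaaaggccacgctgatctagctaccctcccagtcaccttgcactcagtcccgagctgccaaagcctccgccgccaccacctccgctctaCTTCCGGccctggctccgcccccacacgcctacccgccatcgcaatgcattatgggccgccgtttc
EHF: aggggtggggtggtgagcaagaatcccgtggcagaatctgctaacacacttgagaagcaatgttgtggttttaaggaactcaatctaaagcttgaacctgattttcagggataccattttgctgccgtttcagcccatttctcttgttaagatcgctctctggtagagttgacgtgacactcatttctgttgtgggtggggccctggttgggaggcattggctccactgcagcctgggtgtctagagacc
A match of letters is a description and not a site of binding, and no library here measured binding.

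The libraries held 28037392 to 36829479 counts, with 17755 to 18658 genes detected. The parental DMSO library stood apart in its scaling, with a TMM factor of 0.899 against 1.01 to 1.04 in the other 5. Ratios that used it spread widely, with an SD over 12367 genes of 0.71 on the log2 scale for E2 over DMSO in the parental line against 0.41 and 0.44 in the clones. The same parental ratio followed GC content, with Spearman's rho across genes 0.345, against 0.127 in clone 1 and -0.063 in clone 2. It followed transcript length too, with rho 0.364, against 0.273 in clone 1 and -0.095 in clone 2. For clones 1 and 2 over parental, rho with length was 0.388 and 0.405 in DMSO and 0.049 and 0.027 in E2. These rho values are a description across genes that are not independent. A trend with GC content was also present without the parental DMSO library. For clone over parental in E2, rho with GC content was -0.328 in clone 1 and -0.078 in clone 2. Values without this library are given beside the knockout effect of ETV4 and ETS2 and the E2 effect of ELK4 and EHF. The labelled cell type was checked against markers: all 6 epithelial markers averaged 117 to 867 CPM (counts relative to the TMM-scaled size of the library) and all 4 endometrial markers, ESR1, PAX8, SOX17 and EMX2, 72.4 to 356 CPM. Of 8 markers of leukocytes, endothelium and stroma, 6 averaged under 1 CPM, none was at 0 in every library, and their summed level was 4.08 to 15.2 CPM. The stromal collagen COL3A1 stood at 7.93 and 9.73 CPM in the parental libraries and 1.34 to 3.35 CPM in the clones (knockout effect -2.09, unadjusted p = 0.00105, adjusted p = 0.117 in edgeR), and COL1A2 at 0.336 and 0.722 CPM against 0.0837 to 0.377 (-1.58, adjusted p = 0.375). The part of these markers in the results was not tested. In bulk RNA, fewer cells expressing a gene and less RNA per cell cannot be told apart.

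ETV4, the targeted gene, was low in all 4 clone libraries. Its level was 19.7 CPM in parental DMSO and 28.4 in parental E2, against 3.41 and 2.95 in clone 1 and 2.42 and 2.77 in clone 2. The clones held 14.8% ± 3.52 (SD, n = 2) of the parental level in DMSO and 10.1% ± 0.449 (SD, n = 2) in E2. The fitted knockout effect was -3.04 on the log2 scale (SE 0.21, adjusted p = 0.00868, by the quasi-likelihood test of edgeR, Benjamini-Hochberg adjusted over 15611 genes). This call rested on single libraries: the adjusted p was 0.0986 without parental DMSO, 0.115 without parental E2 and 0.0561 without clone 2 E2, with log2 changes of -3.32, -2.75 and -2.97. The level of the transcript in the clones says nothing about protein.

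The members of the family were first placed on a scale that allows genes to be compared, CPM per kb of exon length. Lengths came from GENCODE v29 and not from the annotation used in counting, so this scale is approximate. On it ELK1 was highest of the 28 ETS genes in every library, with a mean of 29.3 (27.2 to 30.8 over 6 libraries). ERF followed at 20.6 (18.5 to 22.2), apart from ELK1 and from all below it but ELF3, whose highest library reached 20.2. GABPA at 15.3 (13.6 to 17.7), ELF1 at 14.5 (12.6 to 16.5) and ELF3 at 13.3 (10.1 to 20.2) overlapped one another. ETS2 stood at 10.7 (8.18 to 13.4), its range overlapping those of ELF1 and ELF3. ELK3 at 6.0 (5.34 to 6.71), ELK4 at 5.77 (4.07 to 7.13) and EHF at 5.23 (2.11 to 11.5) overlapped, and the highest EHF library also reached the ranges of ETS2 and ELF3. ETS1 was the lowest of the 10 at 1.92 (1.09 to 2.49), and its range met only that of EHF among the 10.

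The remaining ETS genes interleave with these: ETV5 averaged 11.7 CPM per kb, ELF2 10.9 and ELF4 5.63. ETV4 ranked 9 in parental DMSO and 6 in parental E2, and 16 or 17 in the clones. Of the summed level of the 28 ETS genes, ETV4 made up 4.24% in parental DMSO and 6.24% in parental E2, and 0.498% to 0.739% in the clones. The 10 factors made up 71.5% and 70.2% in the parental libraries and 75.8% to 76.9% in the clones. ETV4 is part of that sum, so its lower level by itself raises the share of the 10 in the clones. With DMSO, their own summed level was 119 CPM per kb for parental cells, against 126 (clone 1) and 132 (clone 2). With E2 it was 114, against 127 (clone 1) and 118 (clone 2). Both clones therefore stood above parental cells within each treatment. Across treatments the ranges met, since clone 2 with E2 lay just under parental cells with DMSO. A difference in this sum was not tested. The sum over all 28 genes was 166 and 162 CPM per kb in the parental line and 156 to 174 in the clones, the parental values lying inside the clones' range.

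**Figure D1:**
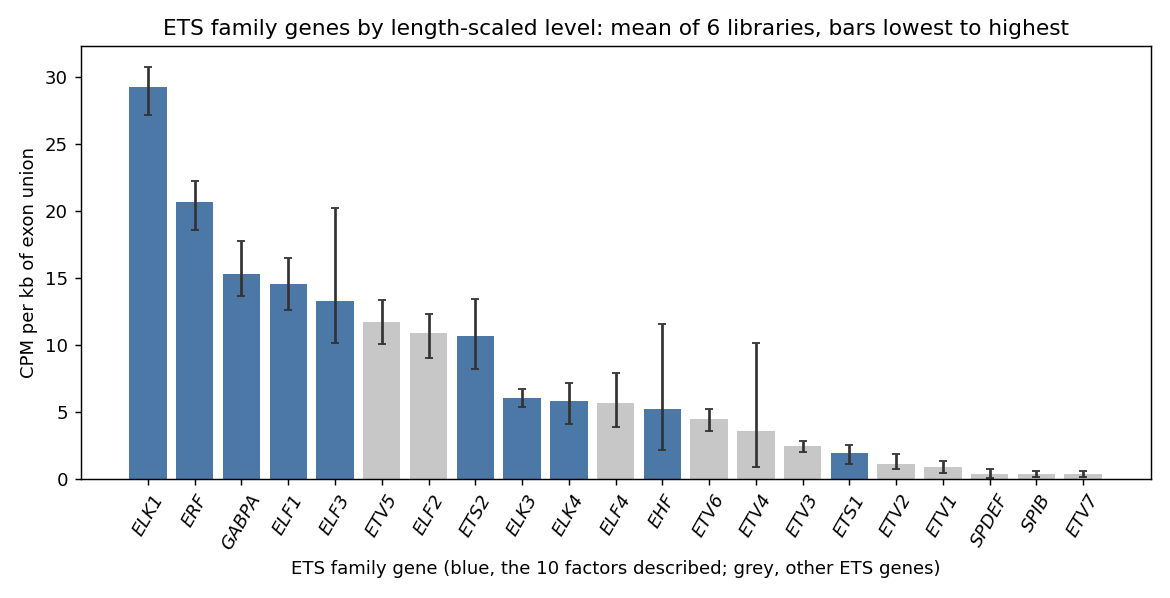
Mean CPM per kb of exon union (vertical axis) of the 21 ETS genes with a mean above 0.3, over 6 libraries; whiskers run from the lowest to the highest library, blue bars are the 10 factors described and grey bars other ETS genes. ELK1 is highest at 29.3, and EHF, ELF3 and ETV4 have long whiskers.

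Within a gene, levels are given in CPM in the order parental, clone 1, clone 2, for DMSO and then E2. The ternary complex factors ELK1, ELK3 and ELK4 bind serum response factor (SRF) at serum response elements. ELK1 had 89.4, 78.9 and 83.2 CPM in DMSO and 87.8, 83.9 and 86.6 in E2. It was the steadiest of the 10, with a range of 1.13-fold over the libraries, and both parental libraries lay above all 4 clone libraries. ELK3, which can repress such sites until it is phosphorylated, had 26.2, 28.2 and 27.3 CPM in DMSO and 22.8, 24.6 and 22.4 in E2. The E2 libraries lay below the DMSO libraries without overlap, by a small margin. ELK4 had 44.5, 52.7 and 58.3 CPM in DMSO and 73.0, 72.2 and 78 in E2. Here the groups were well separated, and the lines differed more in DMSO than in E2.

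ETS1 and ETS2 carry a Pointed domain through which ERK reaches them. ETS1, best known from lymphoid and endothelial cells, had 12.4, 13.8 and 10.5 CPM in DMSO and 11.4, 9.53 and 6.05 in E2. Its lowest value, 177 counts, was in clone 2 with E2, and the treatments overlapped. ETS2 had 35.3, 50.1 and 54.6 CPM in DMSO and 33.3, 47.8 and 39.9 in E2. Both parental libraries lay below all 4 clone libraries.

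GABPA is the DNA-binding subunit of GA-binding protein and works with a GABPB subunit. It had 94.2, 85.3 and 81.7 CPM in DMSO and 72.5, 76.5 and 76.6 in E2, and the DMSO libraries lay above the E2 libraries. ELF1, an activator found in many tissues, had 54.0, 52.6 and 58.7 CPM in DMSO and 44.9, 49.4 and 51.2 in E2. The same order of treatments held, again by a small margin. The repressor ERF had 51.8, 62.2 and 60.4 CPM in DMSO and 54.1, 61.9 and 55.9 in E2, with both parental libraries lowest and a range of 1.20-fold.

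ELF3 and EHF are the epithelial factors of the set. ELF3 had 81.1, 87.6 and 125 CPM in DMSO and 62.4, 63.0 and 72.8 in E2. Clone 2 was the highest line in both treatments, and no E2 library reached the DMSO range. EHF had 8.34, 20.2 and 9.43 CPM in DMSO and 22.5, 45.5 and 17.9 in E2. Clone 1 was above the other lines in both treatments, and E2 was above DMSO within every line, but clone 1 in DMSO exceeded clone 2 in E2, so the treatments overlapped. Over the 6 libraries EHF ranged 5.46-fold, ETS1 2.28-fold, ELF3 2.00-fold, ELK4 1.75-fold and ETS2 1.64-fold, and the other 5 stayed within 1.31-fold.

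**Figure D2:**
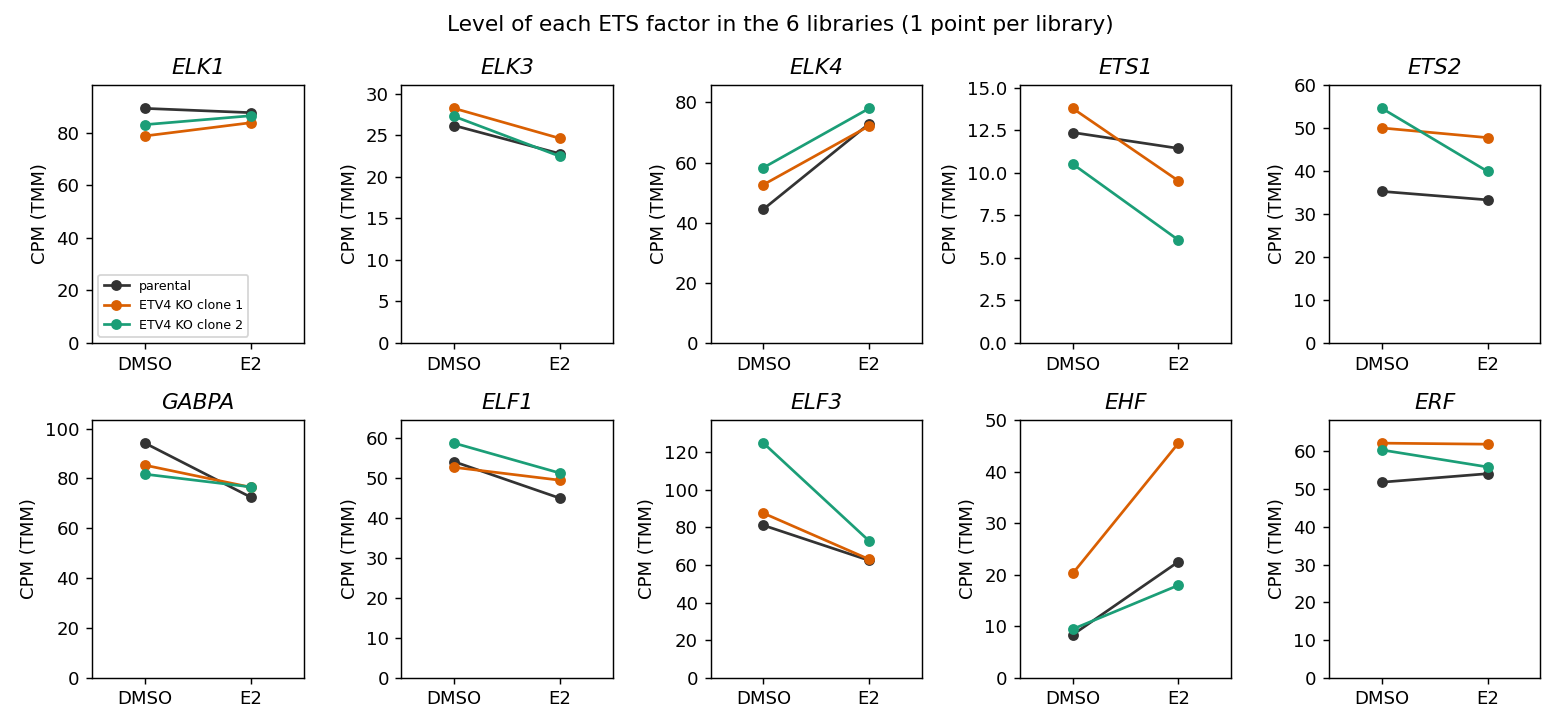
Level of each of the 10 factors (vertical axis, CPM on TMM-scaled library sizes, from 0, with its own scale per panel) in DMSO and E2; each point is 1 library, and lines join the 2 libraries of the parental line (black), clone 1 (orange) and clone 2 (green). ELK4 and EHF slope upward in all 3 lines, and EHF in clone 1 lies above the other lines.

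Reads of overlapping genes may bear on 4 of these levels. For overlaps on opposite strands this depends on whether the counting used strand, which is not given in the sources used here. Overlaps on the same strand remain either way. In GENCODE v29 the exons of GABPA share 413 bases with ATP5J on the opposite strand, which had 23982 counts over the libraries against 15438 for GABPA. ELF3 shares 664 bases with its antisense gene ELF3-AS1 and 449 bases with a gene on the same strand, ELK3 shares 209 bases with an antisense gene, and ERF shares 155 bases with a gene on the same strand. The levels of these 4 genes are uncertain to that extent. Among the overlapping genes only ATP5J had counts of its own.

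No member of the 10 passed the test for a difference between knockout and parental lines over both treatments (0 of 10, where 0.327% of the 15611 genes tested passed; 1 member and 1787 genes had an unadjusted p under 0.05). All 10 had passed the filter on low counts. The knockout fit takes the DMSO and E2 libraries of a line as independent, so its errors and intervals are not those of independent lines. The fitted log2 differences, knockout minus parental, were positive in 7 and negative in 3, with a median of 0.14 against 0.013 for all genes. DESeq2 and limma-voom also called 0 of the 10.

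ETS2 came nearest, at 0.48 on the log2 scale (SE 0.13, 95% interval 0.16 to 0.80, unadjusted p = 0.00939, adjusted p = 0.280 in edgeR), a fold of 1.40. In single libraries the log2 ratio of clone to parental was 0.50 and 0.63 in DMSO and 0.52 and 0.26 in E2 for clones 1 and 2. The difference therefore had the same sign in 4 of 4 ratios, all sharing the parental libraries. Without parental DMSO the ETS2 estimate was 0.39 (SE 0.19, adjusted p = 0.999), and 0 of the 10 had an unadjusted p under 0.05. The estimate for EHF was larger at 0.66 but its error was wide (SE 0.44, 95% interval -0.39 to 1.70, adjusted p = 0.542). Clone 1 gave EHF ratios of 1.27 and 1.01 in DMSO and E2, that is 2.42-fold and 2.02-fold, while clone 2 gave 0.18 and -0.33. Without the clone 2 line the estimate was 1.14, and without the clone 1 line it was -0.10, both fits resting on 1 residual degree of freedom. The higher EHF level was found in 1 of the 2 clones.

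The other 8 had fitted differences between -0.30 (ETS1, SE 0.25) and 0.25 (ELF3, SE 0.18), with adjusted p from 0.535 to 0.862. ETS1 and ELF3 had the larger errors, while those of ELK1 (-0.09, SE 0.11), GABPA (-0.05, SE 0.12), ELK3 (0.07, SE 0.12), ELF1 (0.10, SE 0.12), ELK4 (0.18, SE 0.13) and ERF (0.18, SE 0.12) were smaller. Counted by sign alone, ETS2, ELF3 and ERF were above the parental line in both clones and both treatments and ELK1 was below it, 4 of 10, where 34.5% of the 12367 genes averaging 2 CPM or more lay on 1 side in this way. That share is close to the background.

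The largest fitted E2 differences among the 10 were those of EHF, ELF3 and ELK4. No member passed the test over all 3 lines (0 of 10, where 1.13% of genes passed, 141 higher and 35 lower; 3 members and 3180 genes had an unadjusted p under 0.05). ELK4 was 0.53 higher in log2 units with E2 (SE 0.12, adjusted p = 0.107 in edgeR), a fold of 1.44. The single-line folds of ELK4 were 1.64 (parental), 1.37 (clone 1) and 1.34 (clone 2). Without clone 2 in DMSO its estimate was 0.60, without the clone 2 line 0.58, and without parental DMSO 0.42. Whether ELK4 passed the threshold depended on which library or line was left out.

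EHF was 1.20 higher with E2 (SE 0.41, 95% interval 0.24 to 2.17, adjusted p = 0.190), a fold of 2.30. Parental cells had 2.69-fold more of it with E2, clone 1 had 2.25-fold more and clone 2 had 1.90-fold more. With line as a replicate block, which compares each E2 library with the DMSO library of its own line, EHF rose by 1.18 (SE 0.14, adjusted p = 0.0182). In that fit 1 of the 10 passed, where 2.46% of genes did. The paired values of the others nearest to the threshold were 0.53 for ELK4 (adjusted p = 0.0797), -0.54 for ELF3 (adjusted p = 0.0852) and -0.47 for ETS1 (adjusted p = 0.158). DESeq2's Wald test called EHF (1.20, adjusted p = 0.0245) and ELK4 (0.53, adjusted p = 0.0140). It called 1111 of the 15006 genes to which it gave an adjusted p. Without parental DMSO, in the unblocked fit, EHF was 1.08 (adjusted p = 0.615).

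ELF3 was lower with E2 by the unblocked fit, at -0.56 (SE 0.17, adjusted p = 0.167), with single-line log2 ratios of -0.38 (parental), -0.47 (clone 1) and -0.78 (clone 2). With a library or line left out the estimate ran from -0.68 to -0.37. A correction for GC content and length, added after the data were seen, moved ELF3 to -0.65 (adjusted p = 0.0388) and EHF to 1.36 (adjusted p = 0.110). In that fit 385 of 15611 genes passed. With that correction and the replicate block together, EHF (1.32, adjusted p = 0.0105), ELF3 (-0.65, adjusted p = 0.0113) and ELK4 (0.46, adjusted p = 0.0298) all passed. There 1534 of 15611 genes passed, so the share of 1.13% in the main fit does not apply. ETS1 was at -0.46 (SE 0.24, adjusted p = 0.311) and followed the lines unevenly, with ratios of -0.11, -0.53 and -0.79. ETS2, ELF1, ELK3 and GABPA had fitted values of -0.19 to -0.22 with adjusted p from 0.317 to 0.389, and ELK1 (0.04) and ERF (-0.02) lay near 0.

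By sign, 8 of the 10 moved 1 way in all 3 lines, where 53.7% of 12367 genes did. ELK4 and EHF were higher with E2 in every line, and ETS1, ETS2, ELF1, ELF3, ELK3 and GABPA were lower. The median fitted difference of the 10 was -0.19 against -0.017 over all genes. EHF in the parental line and in clone 1 was the one member past a 2-fold difference with E2, in a background of 11.5% of genes past it in parental cells and of 2.33% and 2.71% in clones 1 and 2.

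**Figure D3:**
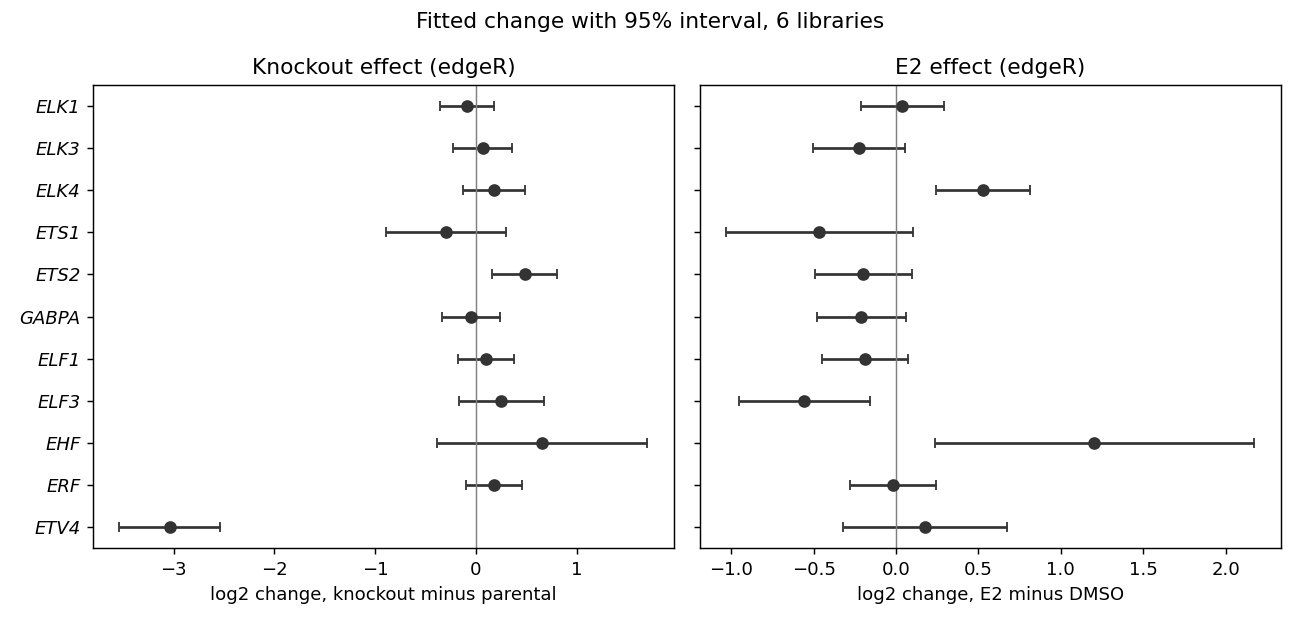
Fitted log2 change (horizontal axis) of each factor and of ETV4 in edgeR over 6 libraries, with 95% intervals, for knockout minus parental at left and E2 minus DMSO at right. At left the interval of ETS2 (0.16 to 0.80) and that of ETV4 lie off 0, and at right those of ELK4, EHF and ELF3 do.

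Whether the response to E2 differed between knockout and parental lines was tested as an interaction. None of the 10 passed, and neither did any gene (0 of 15611, a background of 0%; 0 members and 1190 genes had an unadjusted p under 0.05). DESeq2 called 56 of the 1030 genes to which its filtering left an adjusted p, and none of the 10 factors had one, so it gives no test of them. The design leaves wide errors: for EHF the E2 change in the clones minus that in the parental line was -0.34 with a 95% interval of -2.48 to 1.80. For ELK4 it was -0.28 (SE 0.23, adjusted p = 0.712) and for ETS1 -0.53 (SE 0.49, adjusted p = 0.735). The other 7 lay between -0.27 (ELF3) and 0.25 (GABPA). With the replicate block 2470 genes but 0 members passed, in a fit with 1 residual degree of freedom. EHF passed (-0.66, adjusted p = 0.0124) when the GC and length correction was added to the block. In that corrected fit 1784 of 15611 genes passed, again with 1 residual degree of freedom. A failure to pass with 1 parental library per treatment does not show that the lines responded alike.

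The 2 clones differed in EHF. Across both treatments EHF was lower in clone 2 than in clone 1 by -1.22 on the log2 scale (SE 0.17, adjusted p = 0.0440 in edgeR), so that clone 1 was 2.33-fold higher. It was 1 of 10 members called, where 0.871% of genes were. The call was lost without clone 1 in DMSO (-1.21, adjusted p = 0.0951), without clone 1 in E2 (-1.23, adjusted p = 0.0751) and when genes had to have at least 10 counts in every library (adjusted p = 0.0748), and DESeq2 kept it (adjusted p = 5.8e-05). ETS1 was at -0.51 (SE 0.21, adjusted p = 0.410) and ELF3 at 0.37 (SE 0.16, adjusted p = 0.428). Both were called without parental DMSO and in the 4 clone libraries alone, in fits with 1 residual degree of freedom. In the 4 clone libraries alone 2723 of 14881 genes were called. The DMSO and E2 libraries of 1 clone stand in for replicates here, so the test concerns these cultures.

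**Figure D4:**
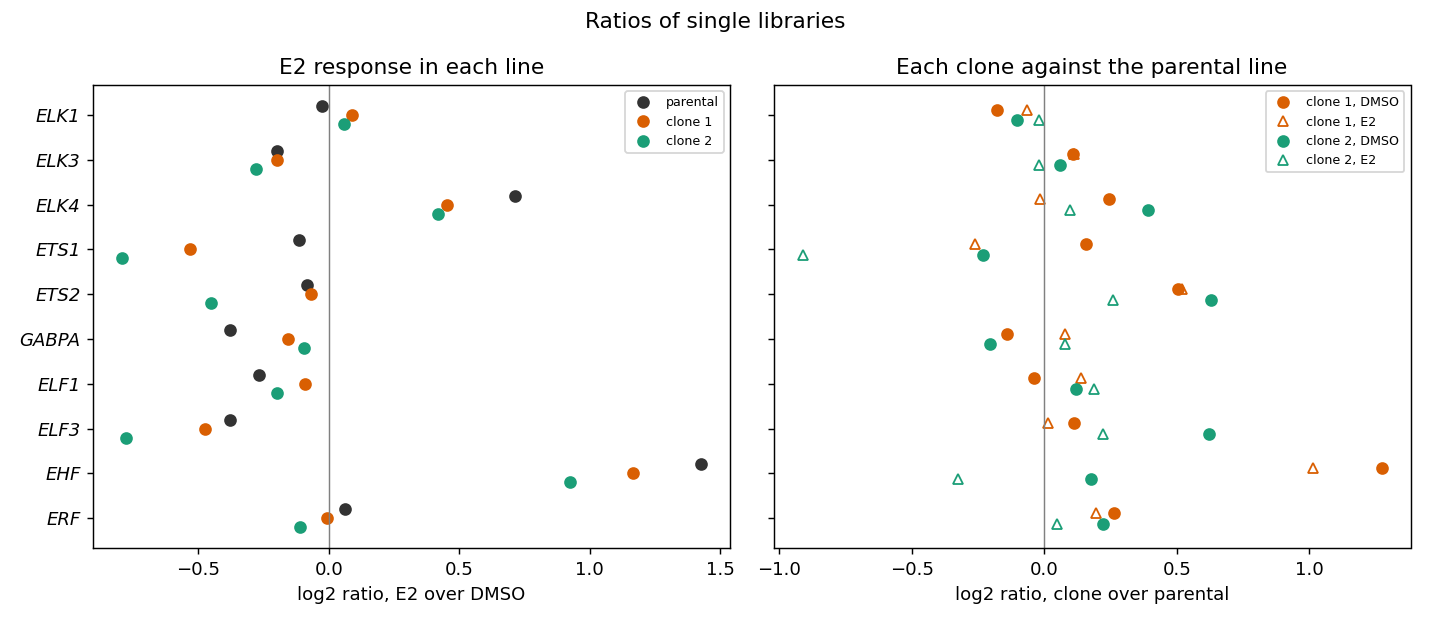
Log2 ratios of single libraries (horizontal axis; 1 point per ratio, no error) for E2 over DMSO in each line at left and each clone over the parental line at right, filled for DMSO and open for E2. EHF in clone 1 is the point farthest right at right (1.27 in DMSO), and ETS2 lies right of 0 in all 4 ratios.

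The other genes of the pathway were read from lists. Of 18 further ETS genes 14 were tested, and 1 was lower in the knockout lines, ETV4 itself, where 0.327% of all genes were called. Their median knockout difference was -0.0022. With E2, 1 of the 14 rose, where 1.13% of all genes were called. This was SPDEF, an epithelial ETS factor, which rose by 3.34 on the log2 scale (SE 0.50, adjusted p = 0.0368). SPDEF had 1, 6 and 5 counts in DMSO and 52, 37 and 34 in E2 for the parental line, clone 1 and clone 2. The size of its change therefore rests on DMSO values near 0. It averaged 0.699 CPM, under the 2 CPM set for named genes, and is named after its values were seen. The PEA3 paralog ETV5 had 54.8, 51.7 and 43.5 CPM in DMSO and 57.7, 50.5 and 44.9 in E2 for the parental line, clone 1 and clone 2. ETV1 had 7.60, 9.91 and 4.75 CPM in DMSO and 4.94, 8.23 and 3.18 in E2, so that clone 1 was highest and clone 2 lowest in both treatments. Partners and regulators of the family, among them GABPB1, SRF, RUNX1 and the ERK kinases, had 0 of 16 tested genes called for knockout and for E2. Their medians were 0.22 and 0.16, against 0.013 and -0.017 over all genes. An unadjusted p under 0.05 was found for 1 and 2 of them (6.25% and 12.5%, against 11.4% and 20.4% of all genes).

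A further list held genes with a site for a ternary complex factor and SRF, together with early SRF targets. It is not a list of ELK targets alone. For the knockout 0 of its 14 genes were called (5 at an unadjusted p under 0.05, or 35.7% against 11.4% of all genes, with a median of 0.27 against 0.013). With E2, 2 of the 14 rose and 1 fell, where 1.13% of all genes were called. EGR1, an immediate early zinc finger factor, had 53.4, 103 and 107 CPM in DMSO and 109, 166 and 186 in E2. Its E2 change was 0.84 (SE 0.12, adjusted p = 0.0361). Its relative EGR3 had 0.437, 1.56 and 2.25 CPM in DMSO and 3.58, 8.81 and 18.5 in E2, a change of 2.89 (SE 0.35, adjusted p = 0.0181). JUNB, a subunit of AP-1, had 61.0, 52.6 and 67.1 CPM in DMSO and 31.3, 32.9 and 32.1 in E2, a change of -0.91 (SE 0.13, adjusted p = 0.0307). The 3 DMSO and 3 E2 libraries did not overlap for any of these 3 genes, though EGR1 in clone 2 with DMSO came close to the parental E2 value. The median E2 difference of the 14 was 0.12 against -0.017 over all genes.

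Mitochondrial genes bound by GABP had 0 of 12 called in any test. In the knockout fit over both treatments all 12 estimates were negative, with a median of -0.26 (-0.89 to -0.18) against 0.013 over all 15611 genes, and 2 of 12 (16.7%, against 11.4% of all genes) had an unadjusted p under 0.05. The medians were more negative in the ratios that use the parental DMSO library, but negative values were not confined to those ratios. In DMSO all 12 genes were below the parental level in both clones, with median log2 ratios of -0.48 and -0.81 in clones 1 and 2. In E2, where that library does not enter, 7 of 12 were above the parental level in clone 1 and 4 in clone 2. Below it were 5 and 8, and the medians were 0.06 and -0.06. COX5B, a subunit of cytochrome c oxidase named after its values were seen, had ratios of -0.51 and -0.84 in DMSO and 0.24 and 0.30 in E2. SDHB, a subunit of succinate dehydrogenase named likewise, was below the parental level in all 4 ratios. So were TFB1M, TFB2M, ATP5B and MTIF2. In the interaction 11 of 12 were positive, with a median of 0.63 against -0.037 over all genes and 4 of 12 (33.3%, against 7.62% of all genes) at an unadjusted p under 0.05. This contrast includes the parental DMSO library and cannot be fitted without it. The part of the trends with GC content and transcript length in the values of these 12 genes was not tested. GABPA itself was -0.05 in the knockout fit, which joins ratios of opposite sign. For clones 1 and 2 these were -0.14 and -0.20 in DMSO and 0.08 and 0.08 in E2. Its interaction estimate was 0.25 and was not called.

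EHF had the widest range of log2 CPM among the 10, and genes with a like profile were sought over the 6 libraries among 12366 genes. Among those with the highest Pearson r of log2 CPM were ZNF800 (0.995), DNAJA1 (0.989), TEX2 (0.980) and STEAP3 (0.980), and 22 genes exceeded 0.95. The range of ZNF800 was 0.30 log2 units, against 2.44 for EHF, so a high r here says little about size. The 6 points share lines and treatments, and the r values are a description.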

How the data were processed

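Messenger RNA was measured in 6 libraries of Ishikawa cells (3 lines, 2 treatments). The authors deposited whole-number counts per gene, and a normalized signal which equalled the raw count over the DESeq2 median-ratio size factor (0.926 to 1.19). Per the submitters' processing notes the tools were HISAT2, SAMtools, Subread and DESeq2 with build hg19; versions, annotation, counting options and strand use are not given in the sources used here. The deposited counts entered edgeR 4.0.16 in R 4.3.3: TMM scaling, filterByExpr on the 4 groups (15611 of 26364 genes kept), quasi-likelihood tests, Benjamini-Hochberg adjustment over all tested genes, threshold 0.05. Knockout and E2 effects came from 1 model of treatment and genotype, the interaction from treatment by genotype, and the clone difference from treatment and line. Single-library log2 ratios used a prior count of 2 and carry no test; the deposited signal was an alternative for levels. Standard errors are the log2 change over the square root of F. Groups came from the labels. No deposited column was left unused.

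Column names spelled DMOS and ER were taken for DMSO and E2 (1 library of each per line). The clone numbers pair the libraries: the difference of clone 1 from clone 2 correlated at 0.739 between treatments across 12367 genes. Clones 1 and 2 differed beyond counting noise (chi-square per gene 68.7 in DMSO and 38.2 in E2), so none was a duplicate. The members and lists were chosen with earlier results of these data known. Named genes were all 10 factors, ETV4, up to 3 called genes per list and test averaging 2 CPM or more, and the 5 genes most like the widest-ranging factor. A result for a gene under this rule is left out of the text. Alternatives were median-ratio scaling, other filters, DESeq2 1.42.0, limma-voom (limma 3.58.1), the replicate block, each library or line left out, other prior counts and, added after seeing the data, a GC and length correction (lowess span 0.3, 93.7% of genes with a value). The scripts were tested on simulated data. One listed gene, ERFL, was not analysed here.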

Additional observations from a re-analysis of the deposited data

Results flagged for a closer look

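The E2 change of 2 factors had one sign in the parental line and the opposite sign in both clones. ELK1 differed by 0.0997 on the log2 scale, clones minus parental (parental -0.03, clone 1 0.09, clone 2 0.06). ERF differed by -0.119 (parental 0.06, clone 1 -0.01, clone 2 -0.11). Tested as an interaction in edgeR, the difference had an adjusted p of 0.901 for ELK1 and 0.881 for ERF, and every one of these single-library ratios is smaller than the SD of 0.41 to 0.71 over all genes.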

How the results depend on the processing

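Members called were counted under each alternative, with 10 tested except in the interaction by DESeq2, where none had an adjusted p. For the knockout effect the count was 0, and 0 to 1 when a library or line was left out. For the E2 effect it was 0, with 2 in DESeq2, 1 with the replicate block, 1 with the GC and length correction, 3 with the correction and the block, and 0 to 2 with a library or line left out. For the interaction it was 0, with 1 under the correction with the block, and 0 with any clone library left out. For the clone difference it was 1, with 0 at a filter of 10 counts in every library, 3 in the 4 clone libraries alone, and 0 to 3 with a library left out. The cause of these differences was not tested. In edgeR the spread of a gene is weighed against a trend over all genes, and the prior degrees of freedom give that weight. These were 3.81 in the main knockout fit, but infinite in the blocked interaction and in the 4 clone libraries alone. They were also infinite in the knockout and E2 fits without the clone 1 or clone 2 line. Such fits take the spread of each gene from the trend, so their adjusted p does not compare with the main fit.

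The sign turned in these cases, and no value with a turned sign was called. With the GC correction the E2 effect of ELK1 was -0.022, also with the block, and its clone difference -0.034. The interaction of ELF1 was -0.0096 and with the block -0.0063, and that of ELF3 0.024 and with the block 0.030. Leaving out a library or line gave ranges that cross 0: knockout effect, -0.17 to 0.069 for GABPA and -0.10 to 1.14 for EHF; E2 effect, -0.075 to 0.036 for ERF and -0.0083 to 0.075 for ELK1; interaction, -1.16 to 0.30 for EHF, -0.52 to 0.0099 for ELF3 and -0.11 to 0.025 for ELK3; clone difference, -0.26 to 0.12 for ETS2 and -0.12 to 0.057 for GABPA.

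Counts over all genes moved more. The knockout count of 51 ran from 1 to 996 with a library or line left out and from 46 to 451 otherwise. The E2 count of 176 ran from 40 to 3353 and from 139 to 1534. The interaction count of 0 ran from 0 to 38 and from 0 to 2470, the latter with the replicate block, and the clone count of 136 ran from 174 to 2754 with a library left out and from 63 to 2723 otherwise. The 210 alternative values of single-library ratios and the ETV4 level (14.7% and 10.0% by the deposited signal) stayed within the spread. Members had 177 to 3657 counts a library, and the counting error of the ETS1 ratios was 0.099 to 0.14 log2 units.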
